A study of Mus musculus with 6 samples.

Results

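The annotated long non-coding RNA (lncRNA) genes of perihematomal mouse brain are described here, the genes that the authors' gene table types as known lncRNA genes and that reached a summed count of at least 30 over the 6 libraries. This rule kept 229 of the 24459 genes in the table, out of 243 genes of that type. The tissue surrounding the clot was taken from wild-type mice 5 days after an intracerebral haemorrhage (ICH, bleeding into the brain), and the mice had been given either vehicle or TEPP-46 on each of those days. TEPP-46 activates pyruvate kinase M2, an enzyme of glycolysis. All animals had the haemorrhage, so both groups are injured tissue and no uninjured brain is among them. There were 3 vehicle libraries, headed C1, C2 and C4, and 3 TEPP-46 libraries, headed T1, T2 and T3, each made from total RNA by nanopore cDNA-PCR sequencing, which reads whole cDNA molecules. The labels do not tie the libraries to individual animals. A p-value here therefore reflects only library-to-library spread, which may be technical.

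An lncRNA is a transcript with no long conserved open reading frame. Some act as RNA, for example by binding chromatin or microRNAs. Others serve mainly as carriers: the introns of small nucleolar RNA (snoRNA) host genes are processed into snoRNAs, which guide the modification of ribosomal RNA, and other hosts carry microRNA hairpins. Many more lie opposite a protein-coding gene, either overlapping it or starting from the same promoter region. The brain is known for its large number of lncRNAs, among them Meg3 and Rian, which are made from the maternal copy of the imprinted Dlk1-Dio3 region.

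The 229 genes were mostly little-studied loci. Of these, 170 carried an Ensembl identifier found in the GENCODE M21 annotation of GRCm38, and 59 had only a NONCODE identifier, for which no position was looked up. GENCODE classed 67 of the 170 as lincRNA (between genes), 46 as antisense, 43 as processed transcripts, 13 as lncRNAs from a bidirectional promoter and 1 as sense-overlapping. By name, 77 were Riken clones, 44 had Gm numbers, 18 were named after the gene on the other strand and 31 had another name. The longest annotated transcript had a median length of 1492.5 bases, with a range from 323 to 19658. The threshold fell among genes with few reads: 1110020A21Rik and 1700047F07Rik, each with a summed count of 31, were just inside it, and NONMMUG030083.2 with 29 and Gm38944 with 28 were just outside. Several abundant brain lncRNAs, such as Malat1, Neat1, Miat and Xist, were not among the genes of this type and were not analysed here.

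Some of these loci carry small RNAs. By RefSeq coordinates on GRCm38.p6, 11 of the 170 genes with a GENCODE position contain 17 microRNA hairpins on their own strand. The 59 genes with only a NONCODE identifier were not searched. The hairpins give 31 mature microRNA entries with 29 distinct seeds, miR-9-5p and miR-9-3p being entered under both Mir9-3hg and Gm3764. The seed, bases 2 to 8 of the mature microRNA, is the stretch that pairs with target messages, and it is printed in capitals below. The microRNAs shown are one from each of the 2 most abundant hosts, those of hosts known in neural tissue, and the pair in 3110039I08Rik that belongs to a conserved cluster.
miR-9-5p (in Mir9-3hg, chr7:79505279-79505301, plus strand, and in Gm3764, chr3:88215613-88215635, plus strand): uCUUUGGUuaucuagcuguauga
miR-22-3p (in Mir22hg, chr11:75463772-75463793, plus strand): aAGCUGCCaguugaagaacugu
miR-129-5p (in Mir670hg, chr2:94241419-94241439, minus strand): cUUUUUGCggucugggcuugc
miR-370-3p (in Rian, chr12:109618305-109618326, plus strand): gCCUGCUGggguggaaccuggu
miR-770-5p (in Meg3, chr12:109563710-109563731, plus strand): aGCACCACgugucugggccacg
miR-100-5p (in 3110039I08Rik, chr9:41531437-41531458, plus strand): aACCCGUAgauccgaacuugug
miR-125b-5p (in 3110039I08Rik, chr9:41581940-41581961, plus strand): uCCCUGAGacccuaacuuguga

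The only seeds carried by more than 1 of these hosts were those of miR-9-5p and miR-9-3p, whose hairpin lies in both Mir9-3hg and Gm3764. The counts below are of the host transcripts, not of the microRNAs.

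A second sequence shown is the promoter window of Fam120aos. It was picked because this gene had the smallest edgeR p of the 193 tested in the comparison of TEPP-46 with vehicle. Fam120aos was also the only gene of the 229 that the authors listed as changed. The RefSeq window runs from 250 bases before the start of transcription to 50 bases after it (GRCm38.p6, chr13:48967862-48968161, plus strand), and the capitals mark the first 50 transcribed bases.
Fam120aos promoter: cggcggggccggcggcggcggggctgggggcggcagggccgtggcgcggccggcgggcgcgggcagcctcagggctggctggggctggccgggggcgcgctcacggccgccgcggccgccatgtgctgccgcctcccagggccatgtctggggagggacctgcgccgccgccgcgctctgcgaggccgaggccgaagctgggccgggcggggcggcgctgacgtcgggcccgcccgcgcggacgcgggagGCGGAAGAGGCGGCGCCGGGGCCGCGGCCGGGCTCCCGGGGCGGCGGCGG

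This window was 86.7% G and C with 54 CpG dinucleotides, and 0.0365% of the 32851 promoter windows in the table were as rich in GC or richer. By RefSeq, the protein-coding gene Fam120a starts 52 bases away on the opposite strand. The GENCODE gene of Fam120aos begins downstream of the RefSeq start. For comparison, the 148 windows of the 125 members matched in the RefSeq table had a median GC content of 58.3%, against 52.7% over all windows.

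Annotated lncRNA genes took up a small part of the counts, and a handful of genes carried most of it. Their share of all gene counts was 0.466% in C1, 0.453% in C2 and 0.445% in C4, and 0.506% in T1, 0.465% in T2 and 0.491% in T3. The mean was 0.455% ± 0.0104 (SD, n = 3) with vehicle and 0.487% ± 0.0207 (SD, n = 3) with TEPP-46, and the groups overlapped, since T2 lay just below C1. With mitochondrially encoded genes left out of the totals the groups were just apart, at 0.456% to 0.479% with vehicle and 0.480% to 0.520% with TEPP-46. The libraries held between 5286426 and 6025064 gene counts in all, and 227 of the 229 genes were detected in every library. Gas5 alone supplied 28.6% of the lncRNA counts, Gas5, Rian and Meg3 together 48.6%, and the 12 most abundant genes 67.3%. Without Gas5, Rian and Meg3 the share was 0.242% ± 0.00736 with vehicle and 0.243% ± 0.00646 with TEPP-46 (SD, n = 3 each), so for the remaining 226 genes the group means differed by less than the spread between libraries.

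**Figure D1:**
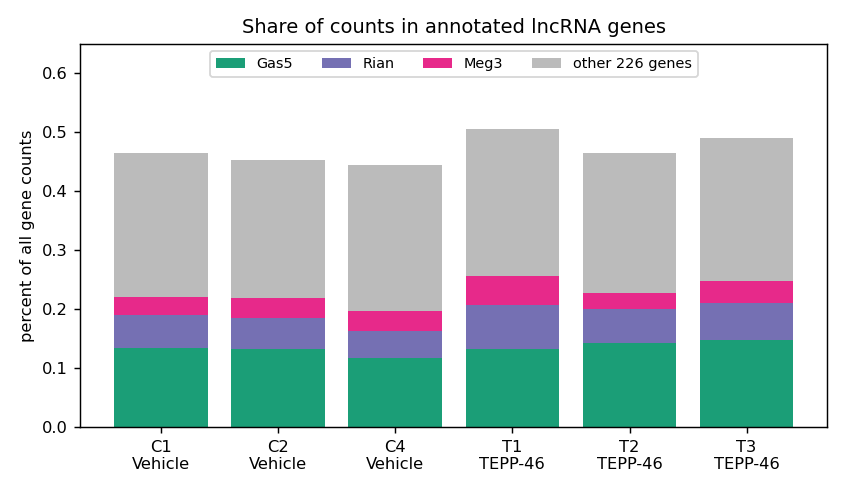
Share of all gene counts in the 229 annotated lncRNA genes, in percent, in each of the 6 libraries. Each bar is 1 library and is split into Gas5, Rian, Meg3 and the other 226 genes; the totals run from 0.445% in C4 to 0.506% in T1, and the grey segment is nearly level.

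Below this top the genes were sparse. The median over the 229 was 4.18 CPM (counts per 1000000 gene counts of the library), with quartiles of 2.22 and 11.1, while protein-coding and other known genes past the same count minimum had a median of 14.5 CPM. A total of 66 lncRNA genes exceeded 10 CPM and 7 exceeded 100 CPM.

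The abundant genes fell into a few kinds. Gas5, Zfas1 and Snhg8 are snoRNA hosts. Gas5 (chr1:161034422-161038539, plus strand) had 1352, 1327 and 1175 CPM in the vehicle libraries, in the order C1, C2, C4, and 1322, 1435 and 1487 CPM in T1, T2, T3, the order used from here on. The groups overlapped, T1 lying below both C1 and C2. Zfas1 (chr2:167062934-167065862) had 119, 108 and 87.2 CPM with vehicle and 108, 118 and 132 CPM with TEPP-46. Snhg8 stayed between 54.7 and 67.8 CPM in all 6 libraries. C4 was the lowest library for Gas5, Zfas1 and Snhg8.

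Rian and Meg3 lie on the same strand of chromosome 12 (Meg3 at 109541001-109571726, Rian at 109603940-109661716). Rian, which carries many snoRNAs, had 559, 520 and 464 CPM with vehicle and 761, 565 and 614 CPM with TEPP-46. Every TEPP-46 library was above every vehicle library, T2 only narrowly above C1. Meg3, a nuclear RNA, had 302, 351 and 340 CPM with vehicle and 480, 283 and 382 CPM with TEPP-46. T1 was the highest and T2 the lowest of the 6, so the TEPP-46 group spanned the vehicle group. T1 was thus the highest library for both genes. Of the protein-coding genes of the same imprinted region, Dlk1 was highest in T2 at 21.7 CPM and lowest in C4 at 2.65 CPM. Rtl1 had at most 10 counts in a library. Dio3 had 5, 8 and 5 counts with vehicle and 3, 2 and 2 with TEPP-46, lower with TEPP-46 but too few to be tested.

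Among the other abundant genes, Pantr1 (chr1:42590782-42694842, minus strand) lies beside Pou3f3, a transcription factor gene of cortical neurons. It had 155, 151 and 206 CPM with vehicle and 205, 186 and 165 CPM with TEPP-46. The lncRNA 1700020I14Rik (chr2:119594297-119607502), known as Cyrano, which binds the microRNA miR-7, had 90.1, 70.3 and 72.6 CPM with vehicle and 110, 57.8 and 82.3 CPM with TEPP-46. As with Meg3, T1 was the highest and T2 the lowest library. Sp3os, an antisense gene named after the transcription factor gene Sp3, had 42.7, 56.1 and 53.3 CPM with vehicle. With TEPP-46 it had 25.1, 50.2 and 48.8 CPM, T1 being the lowest library. By position, the protein-coding gene overlapping Sp3os on the opposite strand is Gm11084.

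Divided by the length of the longest annotated transcript, the levels took another order. Nanopore reads are of whole cDNA molecules, so counts need not grow with transcript length, and this order does not replace that by CPM. Gas5 was first at 528 CPM per kilobase, followed by 2410006H16Rik at 129, Pantr1 at 85.3, Snhg8 at 81.2, Sp3os at 73.3 and Rian at 71.8. Meg3, next after Rian by CPM, stood at 24.5 CPM per kilobase.

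**Figure D2:**
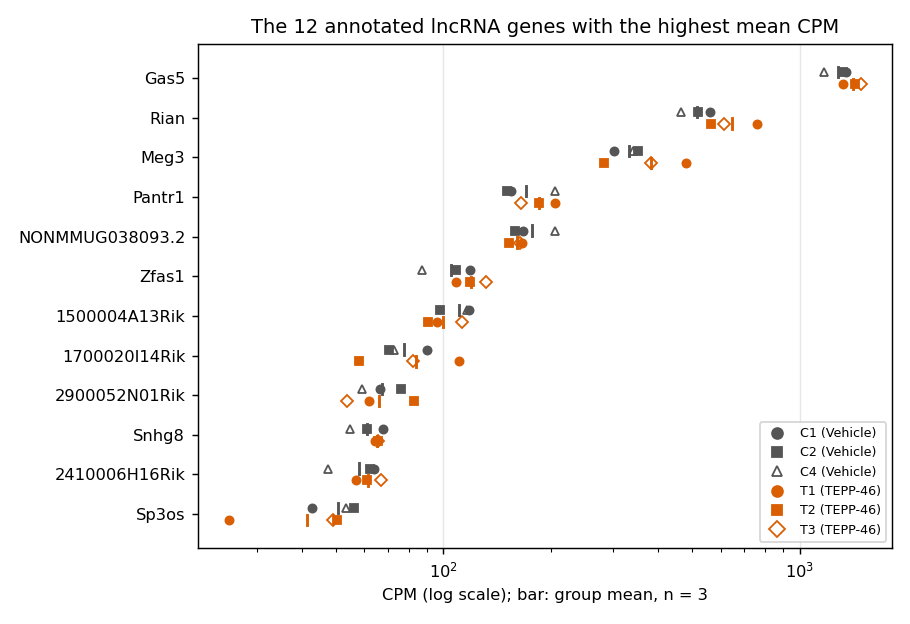
Level in CPM, on a log axis, of the 12 annotated lncRNA genes with the highest mean level. Each marker is 1 library (grey for vehicle, orange for TEPP-46) and each short bar a group mean of 3 libraries; apart from Rian, no gene has all TEPP-46 libraries on one side of all vehicle libraries.

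Most annotated lncRNA genes were read as a single isoform. The 229 genes had 434 isoforms in the isoform table. A single isoform was listed for 135 genes (59.0%), against 17.97% of the known genes past the same count minimum, and the median was 1 isoform, against 3. Only 9 genes had 5 or more. The lncRNA median was the lower one in all classes of summed count but the highest. At summed counts from 30 to under 100 the median was 1 isoform against 2, from 100 to under 300 it was 1 against 3, from 300 to under 1000 it was 2 against 3, and from 1000 to under 3000 it was 3 against 4. Among the 7 lncRNA genes with 3000 counts or more the median was 9 isoforms, against 5 for the 1902 known genes in that class. Across the 229 genes, isoform number and summed count had a Spearman correlation of 0.69, and across the known genes it was 0.39. These values describe the tables, since more reads also allow more isoforms to be found. In all 229 lncRNA genes the gene's count equalled the sum over its isoforms. Summed count and isoform number are therefore not independent measures.

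**Figure D3:**
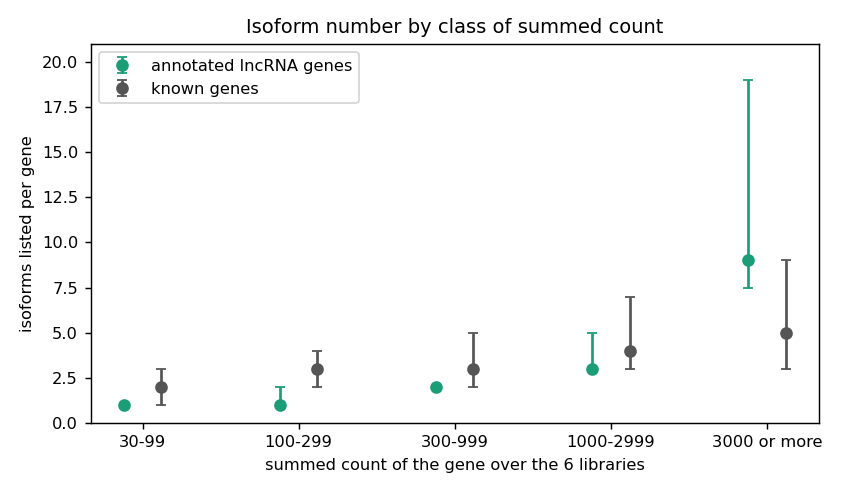
Isoforms listed per gene for the annotated lncRNA genes (green) and known genes (grey) in 5 classes of summed count. Points are medians and bars the quartiles; the lncRNA median rises from 1 to 9 and passes the known-gene median only in the class of 3000 counts or more, which holds 7 lncRNA genes.

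Rian had the most isoforms, 25, followed by Meg3 with 21, Gas5 with 17, Pantr1 and 1500004A13Rik with 9 each, 1700020I14Rik with 8 and Zfas1 with 6. How the reads were split differed between them. In Zfas1 the largest isoform held 57.9% of the gene's counts and in Gas5 20.1%, while in Rian it held 9.85%. In Rian, isoforms 6, 8 and 9 had nearly the same counts in every library: 241, 251 and 244 in C1 and 506, 516 and 506 in T1. Isoforms of a gene that rise and fall this closely are not independent measurements. In a setting added after the values were seen, each gene was given the count of its largest isoform in place of the sum. The top 3 genes were then Gas5 (9030 counts), NONMMUG038093.2 (4223) and Zfas1 (2160), with 23.9% of the sum of these largest isoforms. Rian, with 1914, ranked behind Snhg8, with 2007.

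The authors' isoform types did not always match the gene's type. Of the 434 isoforms, 314 were typed as known lncRNA, 61 as new lncRNA isoforms and 59 as new mRNA, and these held 62.8%, 22.4% and 14.8% of the counts. Isoforms typed as new mRNA occurred in 31 genes and held more than 50% of the counts in 15. Meg3 was the most abundant of them: 19 of its 21 isoforms, with 88.5% of its counts, had that type, 1 was a known lncRNA (Meg3-205) and 1 a new lncRNA isoform. In 2900052N01Rik new-mRNA isoforms held 92.7% of the counts, and in NONMMUG038093.2, another gene among the 12 with the highest CPM, 90.0%. NONMMUG038093.2 was also 1 of 22 genes whose row carried a Swiss-Prot or Pfam annotation, which Meg3 did not.

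At 300 counts or more, a level that 71 of the genes reached, the highest library was a median of 1.62 times the lowest. This was close to known genes of the same count: 1.67 against 1.69 from 300 to under 1000 counts, 1.498 against 1.471 from 1000 to under 3000 and 1.363 against 1.359 above that. The steadiest gene was C230004F18Rik, between 11.1 and 12.5 CPM, a ratio of 1.13. NONMMUG017315.3 was the most variable, from 5.96 CPM in C2 to 27.6 CPM in T1, a ratio of 4.62. C4 was the highest library for 20 of the 71 genes and the lowest for 18, more often than any other library in both respects. C4 also stood apart in marker genes: its 7 oligodendrocyte markers summed to 5361 CPM, against 13166 to 15347 CPM in the other 5 libraries. As brain tissue should, every library held markers of neurons (4901 to 6820 CPM summed over 6 genes) and of astrocytes (3428 to 4018 CPM over 5).

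Other genes, picked after their values were seen, differed between libraries of the same group. NONMMUG027053.2 had 27.9, 10.5 and 8.51 CPM with vehicle and 23.6, 18.5 and 22.2 CPM with TEPP-46. Beside it, the 9 choroid plexus and ependymal markers summed to 5005, 232 and 187 CPM with vehicle and to 4011, 2273 and 3956 CPM with TEPP-46, with Folr1 at 0 in C4. Both were high in C1 and the 3 TEPP-46 libraries and low in C2 and C4. The 3 thalamic markers were also lowest in C2 and C4. They summed to 156, 55.4 and 22.3 CPM with vehicle and to 183, 81.1 and 122 CPM with TEPP-46.
Zeb2os, antisense to the transcription factor gene Zeb2, was highest in C2 at 18.6 CPM and lay between 6.94 and 10.6 CPM elsewhere. The 10 microglia and macrophage markers were also highest in C2, at 6530 CPM against 646 to 3977 CPM. So were the red blood cell (1051 CPM), striatal (1467 CPM) and endothelial (162 CPM) markers. Outside C2 the order differed. Zeb2os was lowest in T2, where the microglia and macrophage markers summed to 3023 CPM, and had 10.4 CPM in C4, where those markers were lowest. In bulk tissue, fewer cells of a type cannot be told apart from less RNA per cell, and the part of cell content in these differences was not tested.

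The design asks which genes TEPP-46 changed in injured tissue. No annotated lncRNA gene passed the test. Of the 229 genes, 193 had enough counts to be tested with edgeR's quasi-likelihood test across all genes, and 36 did not. At an adjusted p under 0.05 (Benjamini-Hochberg over 14441 genes) 0 were called, as were 0% of all genes tested. The smallest adjusted p among the lncRNA genes was 0.380 in that test. DESeq2 called 0 of them as well, and 0.588% of all genes. Without C2, edgeR called 0.291% of all genes, none of them an annotated lncRNA gene. At an unadjusted p under 0.05 in edgeR, 7 of the 193 genes stood out (3.63%), against 5.93% of all genes tested: 2 were higher with TEPP-46 (all genes: 1.88%) and 5 lower (all genes: 4.05%). The groups of 3 libraries did not overlap in 17 of the 193 (8.81%), against 11.4% of all genes, with 8 higher (all genes: 5.67%) and 9 lower (all genes: 5.76%). Both totals were under the shares over all genes. The number higher at an unadjusted p under 0.05 was 7 without C1, 5 without C2, 4 without T2 and 1 without T1. The number lower was 8 without T3. Unadjusted shares over all genes were not worked out with a library left out, so these numbers cannot be set against a background.

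The log2 fold changes of the 193 genes, TEPP-46 over vehicle, had a median of -0.04 and their quartiles were -0.21 and 0.19, beside a median of 0.01 over all genes. Positive values were found for 88 genes and negative values for 105. Without C4 the median of the lncRNA genes was 0.01.

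**Figure D4:**
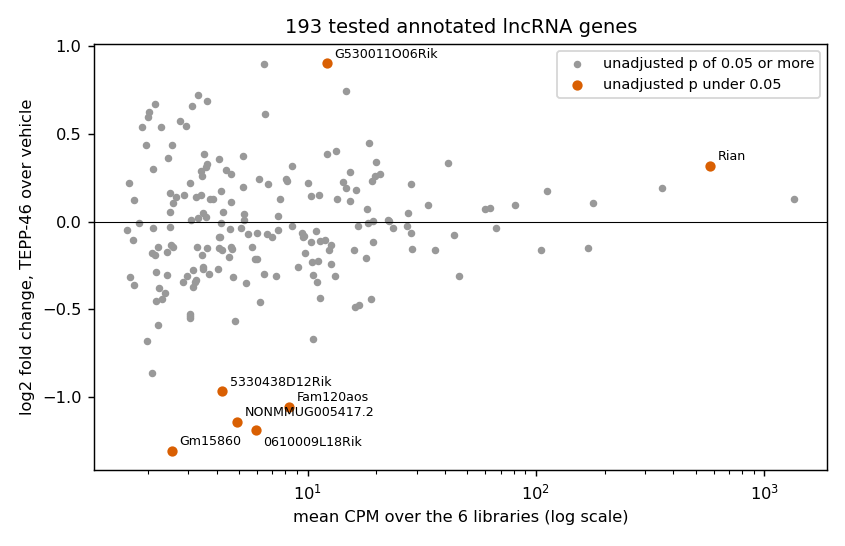
Log2 fold change, TEPP-46 over vehicle, against mean level of the annotated lncRNA genes tested with edgeR. Each point is 1 gene; the changes scatter on both sides of 0, with a median of -0.04, and none has an adjusted p under 0.05 (smallest 0.380).

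The gene with the smallest p was Fam120aos (chr13:48968287-48972031, plus strand), transcribed away from Fam120a, which encodes an RNA-binding protein. Fam120aos had 60, 62 and 61 counts with vehicle and 30, 34 and 28 with TEPP-46. All 3 TEPP-46 libraries were well below all 3 vehicle libraries, and both groups were tight. The mean was 11.2 ± 0.332 CPM with vehicle and 5.43 ± 0.551 CPM with TEPP-46 (SD, n = 3 each). The log2 fold change was -1.06 (SE 0.22), with an unadjusted p of 0.00105 and an adjusted p of 0.380 by edgeR, which misses the threshold. DESeq2 gave an adjusted p of 0.146, and over all alternatives the adjusted p ran from 0.146 to 0.99997. The log2 fold change ranged from -1.14 to -0.99 over the alternatives, the fits with 1 library left out among them. Gene calls in the authors' deposited table need a fold of 1.5 and an unadjusted p of 0.01. By that rule Fam120aos was the only gene of the 229 listed as changed. Its unadjusted p in the authors' deposited table was 0.00116, and its log2 fold change -0.71. The share of all genes listed by that rule was not worked out, so this count has no background beside it. Fam120a itself, whose start is 52 bases away, had 17.4, 15.1 and 18.2 CPM with vehicle and 17.8, 17.8 and 17.5 CPM with TEPP-46, a log2 fold change of 0.06. For Fam120a the groups overlapped.

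Among the other genes with lower values under TEPP-46, NONMMUG005417.2 had 34, 35 and 41 counts with vehicle and 13, 25 and 14 with TEPP-46 (log2 fold change -1.14). Gm15860, antisense to the chromatin remodelling gene Bcl7a, had 19, 13 and 27 against 10, 8 and 7 counts (-1.31), and Bcl7a itself had a value of -0.03. Opposite Actg1, which encodes a cytoplasmic actin, 0610009L18Rik had 37, 52 and 46 against 8, 25 and 28 counts (-1.19). Actg1 had a log2 fold change of 0.04. For 0610009L18Rik the lowest library was T1, and without it the value was -0.77.
5330438D12Rik, which overlaps Cnot2, a subunit gene of the complex that shortens poly(A) tails, had 31, 30 and 30 against 7, 19 and 22 counts (-0.97), and -0.58 without T1. The remaining 3 named in this direction were AA465934 (-0.86), Gm12371 (-0.55) and 2900079G21Rik (-0.21). The last of these had 98, 121 and 97 against 101, 99 and 86 counts, and its groups were apart only as CPM. None of these 7 genes passed the test.

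In the other direction, Rian and G530011O06Rik were the 2 genes with an unadjusted p under 0.05. Rian, whose levels are given above, averaged 514 ± 47.8 CPM with vehicle and 647 ± 102 CPM with TEPP-46 (SD, n = 3 each). Its log2 fold change was 0.32 (SE 0.14), with an unadjusted p of 0.0442 and an adjusted p of 0.832 by edgeR. Leaving out T1, the highest library, brought it to 0.19.
G530011O06Rik had 54, 59 and 25 counts with vehicle and 109, 80 and 81 with TEPP-46, a log2 fold change of 0.90, and 0.62 without C4, the lowest library. RefSeq places copies of this gene on both X and Y, so its reads are uncertain. Mid1, the gene on the other strand, had a value of 0.27. The remaining 6 were Gm9866 (0.38), A330048O09Rik (0.57), 2500004C02Rik (0.27), Epb41l4aos (0.26), a snoRNA host, 5530601H04Rik (0.22) and NONMMUG022093.3 (0.29). In each of these 6 the lowest TEPP-46 library was above the highest vehicle library, by a margin that the test did not separate from the spread.

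**Figure D5:**
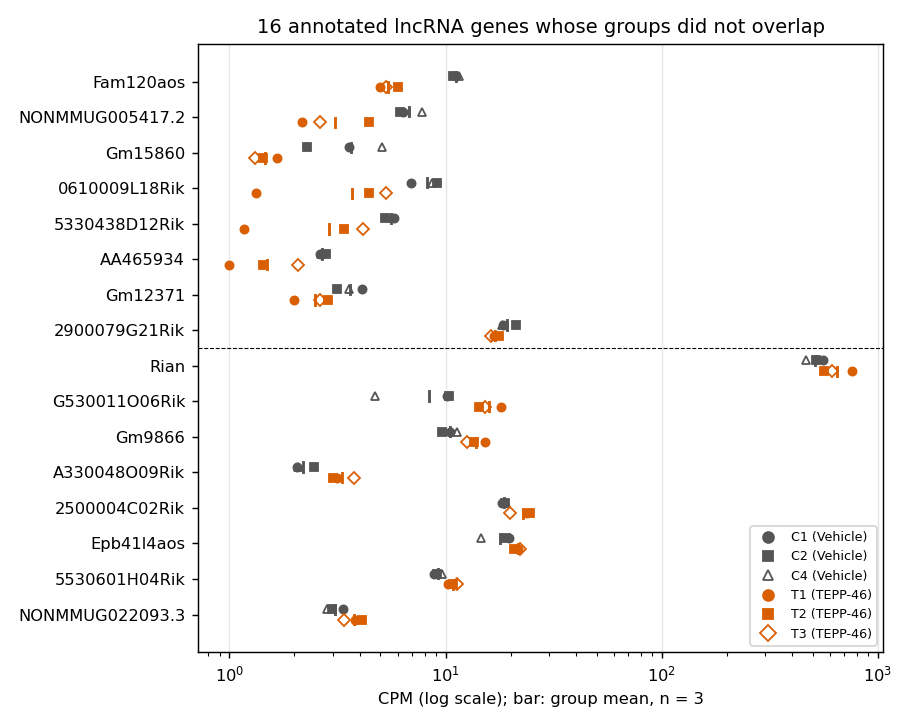
Level in CPM, on a log axis, in each library for the 8 annotated lncRNA genes higher and the 8 lower with TEPP-46 that have the smallest p among genes whose groups do not overlap. Markers are single libraries; Fam120aos, with the smallest p, has vehicle libraries at 10.9 to 11.5 CPM and TEPP-46 libraries at 4.98 to 6.05 CPM.

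No member of the functional lists passed the test either. The snoRNA host list held 21 genes, of which 13 were among the annotated lncRNA genes, and all 13 were tested: 0 passed, 8 had positive and 5 negative log2 fold changes, and the median was 0.10. Gas5 had 0.13 and Rian 0.32. All 6 members of the injury, inflammation and stress list were tested, none passed, 3 were positive and 3 negative, and the median was 0.05. This list includes Gas5, Meg3, Mir22hg, Dancr, Snhg1 and Snhg5. Matched by symbol, the neural list had 5 members, 2 positive and 3 negative, with a median of -0.11, and 0 passed. Mir9-3hg, host of a microRNA of neural progenitors, had -0.16. Cyrano is on the neural list under another symbol, Oip5os1, so 1700020I14Rik, at 0.09, is left out of these figures. The 2 members of the imprinted list, Meg3 and Rian, were both positive and did not pass. Of the microRNA host list, 3 genes were members (Meg3, Mir9-3hg and Mir22hg) and 0 passed. This list was matched by symbol and leaves out other hosts found by position, such as Rian, Mir670hg and 3110039I08Rik. Sox2ot, which contains the stem cell factor gene Sox2 in an intron and was the only member on the oligodendrocyte list, had 12.5, 14.7 and 6.999 CPM with vehicle and 17.8, 11.2 and 16.96 CPM with TEPP-46, a value of 0.40 that was 0.15 without C4 and 0.64 without C2. Its lowest library was C4, where the oligodendrocyte markers were also lowest, as were the choroid plexus, microglia, red blood cell and thalamic markers. The neuronal markers were highest in C4. No gene of the X inactivation centre list was a member.

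Isoforms were tested one by one as well. Of 362 lncRNA isoforms with enough counts, 0 passed an adjusted p under 0.05 in edgeR. An unadjusted p under 0.05 was found for 14 (3.87%), against 5.77% of all isoforms. Of the 14, 6 were higher and 8 lower, and shares of all isoforms by direction were not worked out. Of the 6 higher, 4 were isoforms of Rian, whose counts move together, and the others were of G530011O06Rik and Pantr1. DESeq2 called 0 of these and 0.613% of all isoforms. The number higher ran from 1 without T1 to 17 without C1. Shares of all isoforms at an unadjusted p under 0.05 were not worked out for those fits. The smallest p was that of Fam120aos isoform 1, with an unadjusted p of 0.000666 and an adjusted p of 0.317 by edgeR. Isoform 1 carried nearly all of the gene's reads, 247 against 28 for isoform 2. The next were isoforms 1 of NONMMUG005417.2, Gm15860 and G530011O06Rik, genes with a single isoform. Pantr1 isoform 9 (Pantr1-209) had 8, 6 and 4 counts with vehicle and 25, 14 and 12 with TEPP-46, a log2 fold change of 1.39 with an unadjusted p of 0.00724 by edgeR. The other 8 isoforms of Pantr1 lay between -0.05 and 0.18. In Rian 24 of 25 isoforms were tested and 23 were positive.

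Isoform usage, the proportions in which a gene's isoforms are made, was tested in 71 lncRNA genes. None had an unadjusted p under 0.05, against 0.641% of all genes tested, and 0.0131% of all genes were called at an adjusted p under 0.05. With so small a share over all genes, finding none among 71 says little about whether isoform usage was unchanged. The smallest p was that of Pantr1, 0.0527 by edgeR, followed by NONMMUG044520.2, NONMMUG003766.2 and Gm15417.

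For 134 of the lncRNA genes a protein-coding gene overlapped or lay within 5000 bases, on the opposite strand in 119 cases. Both members of the pair were tested in 102 cases, and their log2 fold changes had the same sign in 52 (51.0%). The Spearman correlation across these pairs was 0.04. It was 0.17 for the 57 overlapping pairs and -0.08 for the 45 that did not overlap. Whether the authors counted by strand is not given in the sources used here, so for overlapping pairs reads of the 2 strands cannot be told apart.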

How the data were processed

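The authors deposited raw counts per gene and per isoform for the 6 libraries, in 1 table each, and these counts are the basis of every test here. Per the submitters' processing notes the reference was GRCm38 and DESeq 1.10.1 was used, while the file headers name DESeq2. From the authors' deposited table, p-values and log2 fold changes are quoted only where it is named. The column letters C and T were read as vehicle and TEPP-46. Since numbering differs between columns and samples, replicates carry no order. Left unused were 12 further columns of per-library values. The sources used here name no aligner and no counting method.

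Counts were tested with edgeR 4.0.16 (TMM, default low-count filter, quasi-likelihood F test, group only, Benjamini-Hochberg over all features), with DESeq2 1.42.0 as an alternative, in R 4.3.3. Isoform usage was tested with edgeR's diffSpliceDGE. CPM used the library's total in the gene table, for isoforms too. Library totals ran from 5286426 to 6025064. GENCODE and RefSeq supplied positions and sequences. Named genes were the 12 most abundant, the 8 with the most isoforms, and, as none was called, up to 8 per direction with non-overlapping groups and the smallest p, plus list members. Where a list had no called member, its 2 most abundant members were named. The genes and lists were chosen with earlier results of these data known.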

Additional observations from a re-analysis of the deposited data

How the results depend on the processing

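No paired analysis was possible because the column numbers (C1, C2, C4 and T1, T2, T3) cannot be tied to the numbers of the samples, so the planned fit with a replicate block was not run. Adjusted p under 0.05 called 0 annotated lncRNA genes and 0 of their isoforms under all settings run (edgeR with TMM, RLE or no scaling factors, no low-count filter, DESeq2, and each library left out). Of 290 log2 fold changes (29 named genes under 10 settings), 282 kept their direction and call and 8 changed sign, in 5 genes. With 1 library left out, Meg3 ranged from -0.0087 (without T1) to 0.36, 1700020I14Rik from -0.16 (without T1) to 0.29, and 2410006H16Rik from -0.048 (without C4) to 0.15. Mir9-3hg ranged from -0.29 to 0.049 (without T1), with 0.010 without C4. 2900052N01Rik ranged from -0.24 to 0.097 (without T3), with 0.072 without C2 and 0.013 without T1. The cause was not tested. Without mitochondrially encoded genes the share was 0.468% with vehicle and 0.502% with TEPP-46 and the groups no longer overlapped, and with a count minimum of 100 the median isoform number was 2. Few reads limit the lower genes: the median member lay at 4.18 CPM.

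Counts of genes at an unadjusted p under 0.05, 2 higher and 5 lower, depended on the libraries: higher ones numbered from 1 without T1 to 7 without C1, with 5 without C2 and 4 without T2, and lower ones reached 8 without T3. DESeq2 gave 1 higher. For isoforms, 6 higher and 8 lower, the higher ones numbered from 1 without T1 to 17 without C1, with 10 without C2 and 12 without T2. The lower ones numbered 4 with DESeq2, 5 without T2 and 15 with no low-count filter. Unadjusted shares over all genes or isoforms were not worked out for these alternative settings, so these numbers have no background beside them.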
